A study of Mus musculus with 8 samples.

Results

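In all, 9 genes that encode fate regulators of T cells other than T-bet and GATA3 were followed, chosen by name from 54146 genes in the files: Runx1, Runx3, Ikzf2, Ikzf3, Bcl6, Zbtb7b, Rora, Foxp3 and Eomes. The cells were EL4, a mouse T lymphoblast line derived from a lymphoma of the C57BL/6 strain, and poly(A) RNA was sequenced in 8 libraries. There were 4 lines with 2 libraries each, all of them made by retroviral transduction and selection. The control line carried GFP and the fluorescent protein Plum (GFP + Plum), and its labels list no ectopic factor. The second line carried FLAG-tagged T-bet with Plum (T-bet + Plum), the third GFP with HA-tagged GATA3 (GFP + GATA3) and the fourth both factors (T-bet + GATA3). Before harvest, each line had been stimulated with PMA at 50 ng/ml and ionomycin at 1 µM for 4 h, the control line included. The 2 libraries of a line were harvests of that line on different days, so each combination of constructs was seen in 1 transduced line. A difference that arose between the lines themselves cannot be told apart from an effect of the constructs. RNA was pooled over the cells of a culture, so fewer expressing cells and less RNA per expressing cell cannot be told apart.

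T helper (TH) cells choose between fates that are each held by a lineage-determining transcription factor, T-bet for TH1 cells and GATA3 for TH2 cells. The genes described here act beside or against these factors. Runx1 and Runx3 are DNA-binding partners of the common subunit Cbfb, and Runx3 is known in TH1 and CD8 T cells for silencing Cd4 and Il4. Ikzf2 (Helios) and Ikzf3 (Aiolos) are zinc finger proteins of the Ikaros family, Helios being abundant in regulatory T (TREG) cells. Bcl6 is the repressor that drives the follicular helper (TFH) fate, Zbtb7b (ThPOK) commits thymocytes to the CD4 lineage, Rora (RORα) is a nuclear receptor of TH17 cells, Foxp3 defines TREG cells, and Eomes is the T-box relative of T-bet in CD8 T cells and NK cells.

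Both Runx genes are transcribed from a distal and a proximal promoter, and Runx1 was the member with the largest fitted effect of T-bet. The bases before the first annotated start in each of these 4 promoters are therefore shown here (RefSeq windows, build GRCm38.p6, each printed 5′ to 3′ on the strand of its gene). The Runx1 windows are chr16:92826150-92826324 (distal) and chr16:92697330-92697579 (proximal), both on the minus strand. The Runx3 windows are chr4:135120395-135120644 (distal) and chr4:135152295-135152495 (proximal), both on the plus strand.
Runx1 distal: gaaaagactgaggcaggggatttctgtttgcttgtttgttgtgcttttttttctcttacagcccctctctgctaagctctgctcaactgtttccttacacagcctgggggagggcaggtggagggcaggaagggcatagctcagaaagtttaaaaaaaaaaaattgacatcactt
Runx1 proximal: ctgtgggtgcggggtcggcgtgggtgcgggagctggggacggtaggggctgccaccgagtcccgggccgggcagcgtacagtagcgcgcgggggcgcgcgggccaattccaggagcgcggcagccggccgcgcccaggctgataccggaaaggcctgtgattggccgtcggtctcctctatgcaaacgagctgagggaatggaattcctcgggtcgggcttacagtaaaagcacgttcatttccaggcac
Runx3 distal: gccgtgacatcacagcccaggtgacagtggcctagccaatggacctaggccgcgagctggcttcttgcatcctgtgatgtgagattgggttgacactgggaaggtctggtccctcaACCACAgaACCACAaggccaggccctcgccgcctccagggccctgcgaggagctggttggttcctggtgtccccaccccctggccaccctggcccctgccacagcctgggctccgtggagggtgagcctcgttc
Runx3 proximal: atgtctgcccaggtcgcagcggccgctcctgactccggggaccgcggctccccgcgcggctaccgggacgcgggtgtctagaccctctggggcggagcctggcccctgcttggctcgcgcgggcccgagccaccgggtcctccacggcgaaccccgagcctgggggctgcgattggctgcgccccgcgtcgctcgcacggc
Capitals mark matches, on either strand, to any of 3 short motifs: TCACACC for T-box factors, AGATAA or TGATAA for GATA factors and TGTGGT for RUNX factors, none of which overlapped another in these windows. The distal Runx3 window held 2 matches to the RUNX letters on the opposite strand, and the other 3 windows held no match to any motif. Among 32851 RefSeq windows of 250 bases, 14.0% held the RUNX letters, 16.6% the GATA letters and 3.33% the T-box letters. Across the 12 windows held for 7 of the 9 genes, 2 had a RUNX match, 2 a GATA match and 0 a T-box match. A match to letters is a description of the sequence only.

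The libraries held between 8038565 and 16003519 estimated counts, with the 2 libraries of T-bet + Plum at 8038565 and 14878505. Tbx21, which encodes T-bet, lay between 1.78 and 3.59 counts per 1000000 (CPM, scaled for library composition) in the 4 libraries without FLAG-T-bet and between 129 and 160 CPM in the 4 with it. Gata3 lay between 25.8 and 53.3 CPM without HA-GATA3 and between 165 and 326 CPM with it, so both labels fitted the libraries. Gata3 was itself lower with T-bet (averaged log2 fold change -0.67, SE 0.14, adjusted p = 0.0174), at 204 and 165 CPM in T-bet + GATA3 against 283 and 326 in GFP + GATA3, and the part of this difference in the results was not tested. Summed T cell markers came to between 1040 and 1456 transcripts per 1000000 (TPM), whereas summed B cell, NK cell and erythroid markers stayed at or below 0.258 TPM and myeloid markers between 2.50 and 5.26 TPM. Of the T cell markers, Cd247 (CD3ζ) was near absent, with 0 to 10 counts per library, and Cd4 lay between 0.571 and 4.85 CPM.

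Levels of different genes were compared on the TPM scale, which corrects for transcript length. Values were summed over all transcripts of a gene, noncoding ones included. On these sums Ikzf3 was the most abundant member, with a median of 32.8 TPM over the 8 libraries (23.4 to 56.7). Ikzf2 came next at 16.5 TPM (10.2 to 23.1). Bcl6 followed at 8.83 TPM (6.68 to 19.0), Runx3 at 8.58 TPM (6.15 to 9.50), Runx1 at 6.66 TPM (2.91 to 11.5), Rora at 3.50 TPM (2.52 to 3.99) and Zbtb7b at 2.25 TPM (1.02 to 4.398). The ranges of Ikzf3 and Ikzf2 just failed to touch, while those of Ikzf2 and Bcl6, Bcl6 and Runx3, Runx3 and Runx1, Runx1 and Rora, and Rora and Zbtb7b overlapped, so the order within these neighbours is not settled. The order of Ikzf3 and Ikzf2 rested on the sums. In the libraries without FLAG-T-bet, the protein-coding transcript Ikzf3-201 alone had lower TPM than the protein-coding Ikzf2-201. The order also differed between lines. By mean TPM, Runx1 lay below Bcl6 in GFP + Plum (4.08 against 9.76) and GFP + GATA3 (5.88 against 15.5). It lay above Bcl6 in T-bet + Plum (10.8 against 8.36) and T-bet + GATA3 (8.83 against 7.54). In the control line the mean TPM of Ikzf3 exceeded that of 70.5% of the 14791 genes tested and that of Runx1 exceeded 36.0%. In T-bet + Plum these shares were 83.5% and 52.1%, and Runx1 had moved from below the middle of the tested genes to just above it.

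Foxp3 and Eomes had 0 counts in all 8 libraries. Foxp3 (ENSMUSG00000039521.12) lies at chrX:7573644-7595245 on the plus strand and Eomes (ENSMUSG00000032446.14) at chr9:118478212-118486132 on the plus strand (GRCm38, Gencode M21). A count of 0 allows up to 3 counts, which is between 0.187 and 0.373 CPM in these libraries, unscaled. This limit covers counting error only. Both genes were therefore undetectable at this depth in every line, and no fold change is given for them. Of the 3 genes that overlap Foxp3 on the opposite strand, Ccdc22 had 80 to 345 counts per library, Gm36995 had 4 to 24 and Ppp1r3f had at most 1. The RNA Gm33460, antisense to Eomes, had between 0 and 7 counts. The other 7 genes passed the filter on low counts and were tested among 14791 genes.

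**Figure D1:**
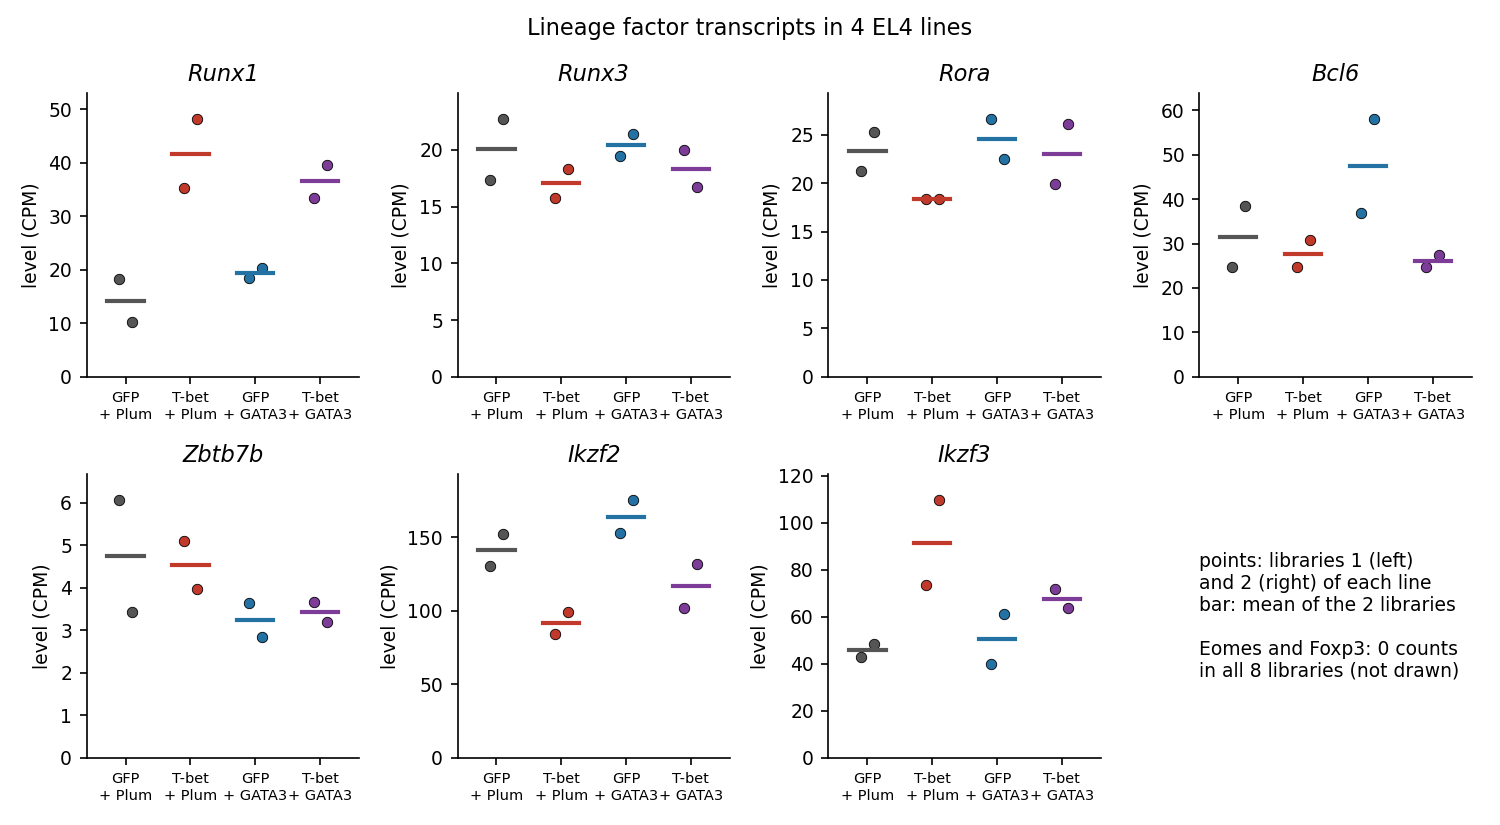
Level of each of the 7 tested genes in CPM (vertical axis, from 0) in the 4 EL4 lines (horizontal axis), with 1 point per library and a bar for the mean of the 2 libraries. The 4 libraries with FLAG-T-bet all lie above the 4 without it for Runx1 (33.4 to 48.1 against 10.2 to 20.3 CPM) and for Ikzf3 (63.8 to 109.6 against 40.0 to 61.3 CPM), whereas the other 5 genes overlap.

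The first question was whether expression of T-bet altered these genes, taken as its effect averaged over the lines without and with HA-GATA3. Of the 7 tested genes, 3 were called at an adjusted p of at most 0.05 by edgeR's quasi-likelihood test with Benjamini-Hochberg adjustment, Runx1 and Ikzf3 higher and Ikzf2 lower. The same test called 15.2% of all 14791 genes, 8.55% higher and 6.61% lower. The median log2 fold change was -0.19 over the 7 genes and 0.02 over all genes tested.

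Runx1 (ENSMUSG00000022952.17, chr16:92601466-92826149, minus strand) rose most. It stood at 18.3 and 10.2 CPM in GFP + Plum libraries and 35.2 and 48.1 in T-bet + Plum ones, and at 18.5 and 20.3 CPM in GFP + GATA3 and 33.4 and 39.6 in T-bet + GATA3. The lowest library with FLAG-T-bet was thus above the highest without it, and only Runx1 and Ikzf3 among the 7 genes were separated in this way, a pattern that 12.5% of all tested genes showed upwards and 10.2% downwards. The averaged T-bet effect on Runx1 was a 2.35-fold rise (log2 fold change 1.23, SE 0.19, adjusted p = 0.00436). Without GATA3 the rise was 2.94-fold (T-bet + Plum versus GFP + Plum, log2 1.55, SE 0.28, adjusted p = 0.0160), a comparison in which 2 of the 7 genes and 6.2% of all genes were called. This call was lost without T-bet + Plum replicate 2, the deeper library of that line (log2 1.28, adjusted p = 0.126), and with limma on TPM (log2 1.34, adjusted p = 0.0560). In the presence of GATA3 the rise was 1.88-fold and was not called (T-bet + GATA3 versus GFP + GATA3, log2 0.91, SE 0.27, adjusted p = 0.102), and 0 of the 7 genes were called there by edgeR against 5.77% of all genes. At an unadjusted p below 0.05, 3 of the 7 genes and 19.6% of all genes passed in that comparison, and DESeq2 called 2 (Runx1 and Bcl6). The count was also 2 with no filter on low counts, 2 with the replicate number as a block and 1 with the contrast's own libraries alone. Leaving out either GFP + Plum library brought Runx1 to an adjusted p of 0.0274. The 2 rises did not differ by the interaction term (log2 -0.64, SE 0.38, adjusted p = 1.00), so the data do not show that GATA3 changed the response of Runx1.

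Runx3 (ENSMUSG00000070691.10, chr4:135120652-135177990, plus strand), the Runx gene associated with TH1 and CD8 T cells, gave no such difference. It lay at 17.4 and 22.7 CPM in GFP + Plum libraries and 15.8 and 18.3 in T-bet + Plum ones, and at 19.4 and 21.4 CPM in GFP + GATA3 and 20.005 and 16.7 in T-bet + GATA3. The 4 libraries with FLAG-T-bet overlapped the 4 without it, and the averaged T-bet effect was a log2 fold change of -0.19 (SE 0.13, adjusted p = 0.383). The ratio of Runx1 to Runx3 on the TPM scale lay between 0.358 and 0.708 in the libraries without FLAG-T-bet and between 0.830 and 1.63 in those with it, a description to which no test was applied. Cbfb, the subunit both proteins share, and Runx2, the third Runx gene, were not called (log2 fold changes of -0.01, adjusted p = 0.954, and -0.31, adjusted p = 0.170).

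Ikzf3 (ENSMUSG00000018168.8, chr11:98464902-98546031, minus strand) lay at 43.1 and 48.3 CPM in GFP + Plum libraries and 73.5 and 109.6 in T-bet + Plum ones, and at 40.0 and 61.3 CPM in GFP + GATA3 and 71.7 and 63.8 in T-bet + GATA3. The groups did not overlap, but the gap was small, from 61.3 to 63.8 CPM. Averaged over GATA3 states, T-bet raised Ikzf3 1.64-fold (log2 0.71, SE 0.17, adjusted p = 0.0273). The rise was 2.01-fold without GATA3 (log2 1.01, SE 0.24, adjusted p = 0.0498) and 1.33-fold with it (log2 0.42, SE 0.24, adjusted p = 0.402), and the interaction was not called (log2 -0.59, SE 0.34, adjusted p = 1.00). The averaged call was fragile. It was lost without GFP + Plum replicate 1, T-bet + Plum replicate 2, GFP + GATA3 replicate 1 or either T-bet + GATA3 library, with adjusted p values from 0.05001 to 0.107 and log2 fold changes from 0.53 to 0.74. The call without GATA3 was lost when any library of GFP + Plum, T-bet + Plum or T-bet + GATA3 was left out (adjusted p from 0.0530 to 0.326), with the contrast's own libraries alone (adjusted p = 0.0632) and with limma on TPM (adjusted p = 0.0773).

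Ikzf2 (ENSMUSG00000025997.13, chr1:69531214-69687245, minus strand) went the other way. It stood at 130.1 and 151.9 CPM in GFP + Plum libraries and 83.9 and 99.0 in T-bet + Plum ones, and at 152.8 and 175.1 CPM in GFP + GATA3 and 101.8 and 131.6 in T-bet + GATA3. The highest library with FLAG-T-bet, at 131.6 CPM, was just above the lowest without it, at 130.1 CPM. Within each GATA3 state the 2 lines did not overlap, a weak pattern with 2 libraries each, whose share over all genes was not taken. The averaged T-bet effect was a 1.47-fold reduction (log2 -0.56, SE 0.12, adjusted p = 0.0165), made up of log2 -0.62 without GATA3 (SE 0.17, adjusted p = 0.0736) and -0.49 with it (SE 0.17, adjusted p = 0.146). The effect on Ikzf2 without GATA3 was called by DESeq2 (log2 -0.65, adjusted p = 0.0205), by edgeR with no filter on low counts (log2 -0.66, adjusted p = 0.00356) and among protein-coding genes only (log2 -0.62, adjusted p = 0.0458). A fit with the replicate number as a block also called it, and was the only setting that called the effect on Ikzf2 with GATA3. The averaged call was lost without T-bet + Plum replicate 1 (log2 -0.50, adjusted p = 0.0684) or GFP + GATA3 replicate 2 (log2 -0.51, adjusted p = 0.0714). On the TPM scale Ikzf3 stood at 1.20 to 1.61 times Ikzf2 in the libraries without FLAG-T-bet and at 1.96 to 4.76 times in those with it. Ikzf1 (Ikaros), the founding member of this family, was also lower with T-bet (log2 -0.36, SE 0.09, adjusted p = 0.0306), a call lost when any single library other than GFP + Plum replicate 1 was left out. Ikzf5 gave -0.23 (adjusted p = 0.232), and Ikzf4 (Eos) had only 0 to 9 counts per library.

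**Figure D2:**
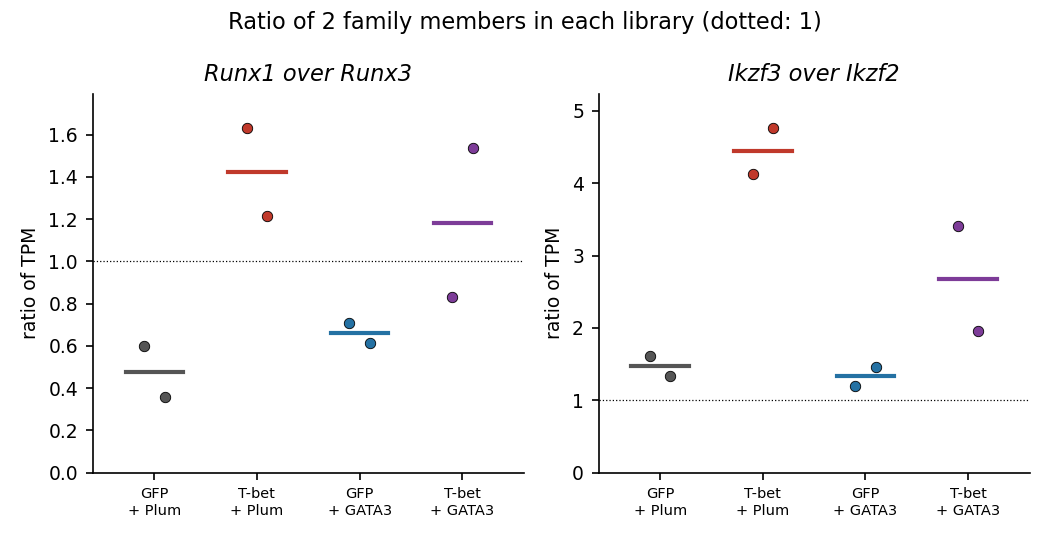
Ratio of TPM of Runx1 to Runx3 (left) and of Ikzf3 to Ikzf2 (right) in each library, by line. Bars give the mean of the 2 libraries, and a dotted line marks a ratio of 1. TPM were summed over all transcripts of a gene, noncoding ones included, so the line does not compare protein-coding transcripts alone. Both ratios are higher in all 4 libraries with FLAG-T-bet, and the 2 libraries of T-bet + GATA3 lie apart in both panels, at 0.830 and 1.53 on the left and at 3.402 and 1.96 on the right.

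Bcl6 (ENSMUSG00000022508.5, chr16:23965052-23988852, minus strand) did not pass edgeR's test in any of the 8 contrasts, although some other settings called it. It stood at 24.6 and 38.6 CPM in GFP + Plum libraries and 24.6 and 30.8 in T-bet + Plum ones, and at 36.9 and 58.0 CPM in GFP + GATA3 and 24.8 and 27.5 in T-bet + GATA3. GFP + GATA3 held the highest library, and the lines with T-bet lay within the range of the control line. The averaged T-bet effect was a log2 fold change of -0.52 (SE 0.19, adjusted p = 0.113), with -0.18 (SE 0.27, adjusted p = 0.779) without GATA3 and -0.86 (SE 0.27, adjusted p = 0.120) with it. The interaction term for Bcl6 was -0.68 (SE 0.38, adjusted p = 1.00), so the sizes with and without GATA3 were not shown to differ. The averaged effect on Bcl6 was called without GFP + Plum replicate 1 (log2 -0.67, adjusted p = 0.0413) and, with all libraries kept, when genes of low counts were not filtered out (log2 -0.54, adjusted p = 0.0019). In the presence of GATA3 the reduction of Bcl6 was called by DESeq2 (log2 -0.88, adjusted p = 0.0424) and by edgeR with no such filter (log2 -0.86, adjusted p = 0.000475). A fit with the replicate number as a block called Bcl6 in the averaged effect and in the presence of GATA3.

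Zbtb7b (ENSMUSG00000028042.15, chr3:89377644-89394776, minus strand) had the lowest median TPM of the tested genes, with 34 to 98 counts per library, although its range overlapped that of Rora. It lay at 6.06 and 3.43 CPM in GFP + Plum libraries and 5.10 and 3.97 in T-bet + Plum ones, and at 3.64 and 2.85 CPM in GFP + GATA3 and 3.68 and 3.19 in T-bet + GATA3. The averaged T-bet effect was close to 0 (log2 0.0031, SE 0.24, adjusted p = 0.996), and its sign turned under other settings. Gm15417 is annotated on the opposite strand of the same locus, with 4 to 17 counts per library, and reads of the 2 genes may not be separable because the strand setting of the quantification was not given in the sources used here. Cd4, which ThPOK sustains in helper T cells, was low here, with 9 to 71 counts per library.

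Rora (ENSMUSG00000032238.17, chr9:68653786-69388246, plus strand) lay at 21.3 and 25.3 CPM in GFP + Plum libraries and 18.4 and 18.3 in T-bet + Plum ones, and at 26.6 and 22.5 CPM in GFP + GATA3 and 19.9 and 26.1 in T-bet + GATA3. T-bet + Plum was the lowest line, but T-bet + GATA3 covered most of the range of the lines without T-bet. The averaged T-bet effect on Rora was a log2 fold change of -0.21 (SE 0.13, adjusted p = 0.323).

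The second question was whether GATA3 altered these genes. By edgeR's quasi-likelihood test, 0 of the 7 genes were called in the GATA3 effect averaged over T-bet states, in which 0.0608% of all genes (9 of 14791) were called. At an unadjusted p below 0.05 there was 1 of the 7, against 4.96% of all genes. This was Ikzf2, with a log2 fold change of 0.28 (SE 0.12, adjusted p = 0.948). DESeq2 and limma on TPM each called 0. The other averaged GATA3 effects were 0.25 for Bcl6 (SE 0.19), 0.20 for Rora (SE 0.13), 0.13 for Runx1 (SE 0.19), 0.06 for Runx3 (SE 0.13), -0.14 for Ikzf3 (SE 0.17) and -0.48 for Zbtb7b (SE 0.24), all as log2 fold changes. The signs for Runx1, Runx3, Ikzf3 and Zbtb7b turned under some other settings. Without T-bet, where GFP + GATA3 was compared with GFP + Plum, 0 of the 7 genes passed and 0.0203% of all genes did, and the largest rise was that of Bcl6 (log2 0.59, SE 0.27, adjusted p = 1). With T-bet, where T-bet + GATA3 was compared with T-bet + Plum, 0 of the 7 and 0.0338% of all genes passed, and Ikzf2 stood at 0.35 (SE 0.17, adjusted p = 1). At an unadjusted p below 0.05 there were 0 of the 7 in either comparison, against 3.7% of all genes without T-bet and 3.78% with it. DESeq2 and limma called 0 of the 7 in both. The interaction of T-bet and GATA3 was called for 0 of the 7 and for 0% of all genes by edgeR, with 0 of the 7 and 2.58% of all genes at an unadjusted p below 0.05. With 2 libraries per line these p values measure the spread between harvests, and a miss does not show that GATA3 left a gene as it was.

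The third question was how cells with both factors stood against the control line. There 1 of the 7 genes and 4.87% of all genes were called. Runx1 was 2.57-fold higher in T-bet + GATA3 than in GFP + Plum (log2 1.36, SE 0.27, adjusted p = 0.0304). This call was lost without GFP + Plum replicate 2, either GFP + GATA3 library or either T-bet + GATA3 library (adjusted p from 0.0525 to 0.104), and also with the contrast's own libraries alone (adjusted p = 0.0943) and with limma on TPM (adjusted p = 0.138), while the log2 fold change stayed between 1.00 and 1.45. Ikzf3 had a log2 fold change of 0.57 (SE 0.24, adjusted p = 0.273) and Ikzf2 of -0.27 (SE 0.17, adjusted p = 0.468). This comparison shares its control libraries with those of each factor alone.

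**Figure D3:**
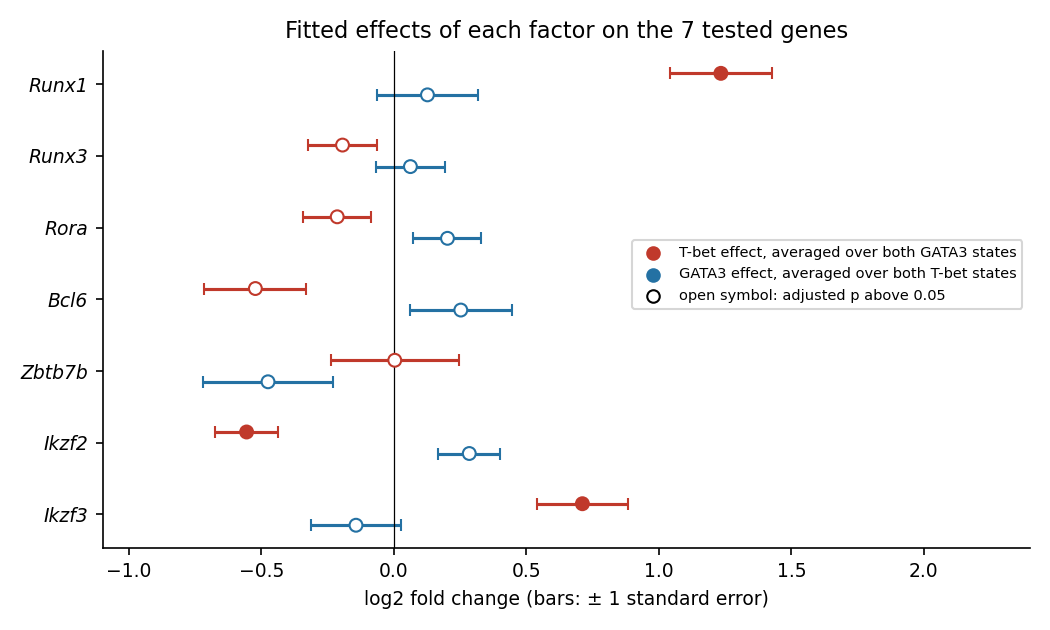
Log2 fold change (horizontal axis) of the 7 tested genes for the averaged T-bet effect (red) and the averaged GATA3 effect (blue), with bars of 1 SE and filled symbols where the adjusted p was at most 0.05. Runx1 at 1.23, Ikzf3 at 0.71 and Ikzf2 at -0.56 are the filled symbols, all of them T-bet effects.

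The deposited values are per transcript, so the start sites in use could be compared. Transcripts of a gene were grouped where their annotated starts lay within 500 bases of each other. For Runx1 the distal group (Runx1-201, Runx1-204 and Runx1-207, starts from 92825778 to 92826149 on chromosome 16) held 52.3% to 65.7% of the gene's counts, and the proximal group (Runx1-202 and Runx1-206, starts from 92697325 to 92697328) held 17.01% to 33.9%. These starts lie just after the distal and proximal Runx1 sequences printed above. Both groups were higher with T-bet. Distal transcripts stood at 11.5, 6.25, 12.0 and 13.3 CPM in the 4 libraries without FLAG-T-bet and at 18.4, 30.9, 21.4 and 22.9 CPM in the 4 with it. Proximal transcripts stood at 5.05, 2.60, 3.14 and 3.64 CPM without it and at 11.2, 16.0, 10.7 and 13.4 CPM with it. Neither group overlapped between libraries with and without T-bet. The distal share averaged 59.7% with T-bet and 63.8% without, a difference of -4.09 percentage points that an exact two-sided permutation test over 4 against 4 libraries did not call (p = 0.257, adjusted p = 0.730 over 10 share tests, where the smallest possible p is 0.0286). On shares of TPM the sign turned, to 2.26 percentage points. The proximal share, by contrast, did not overlap as grouped here, with the nearby Runx1-203 kept apart. It was 31.8% and 33.2% in T-bet + Plum and 32.0% and 33.9% in T-bet + GATA3, against 27.7% and 25.5% in GFP + Plum and 17.01% and 17.98% in GFP + GATA3. On shares of TPM the gap was narrow, from 25.3% in GFP + Plum replicate 1 to 25.6% in T-bet + Plum replicate 1. The proximal share was singled out after its values were seen, and no test was applied to it. A shorter transcript, Runx1-203, took 17.1% and 16.3% of the counts in GFP + GATA3, 8.26% and 10.9% in GFP + Plum, 2.75% and 7.06% in T-bet + GATA3, and 15.8% and 1.67% in T-bet + Plum, the line whose libraries lay farthest apart. It starts at 92696125, just downstream of the proximal group, and was highest in GFP + GATA3, where the proximal share was lowest. The separation of the proximal share therefore depends on leaving Runx1-203 out of that group. The distal share, which this choice does not alter, overlapped, at 64.4% in T-bet + Plum replicate 2 and 61.2% in GFP + Plum replicate 2.

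**Figure D4:**
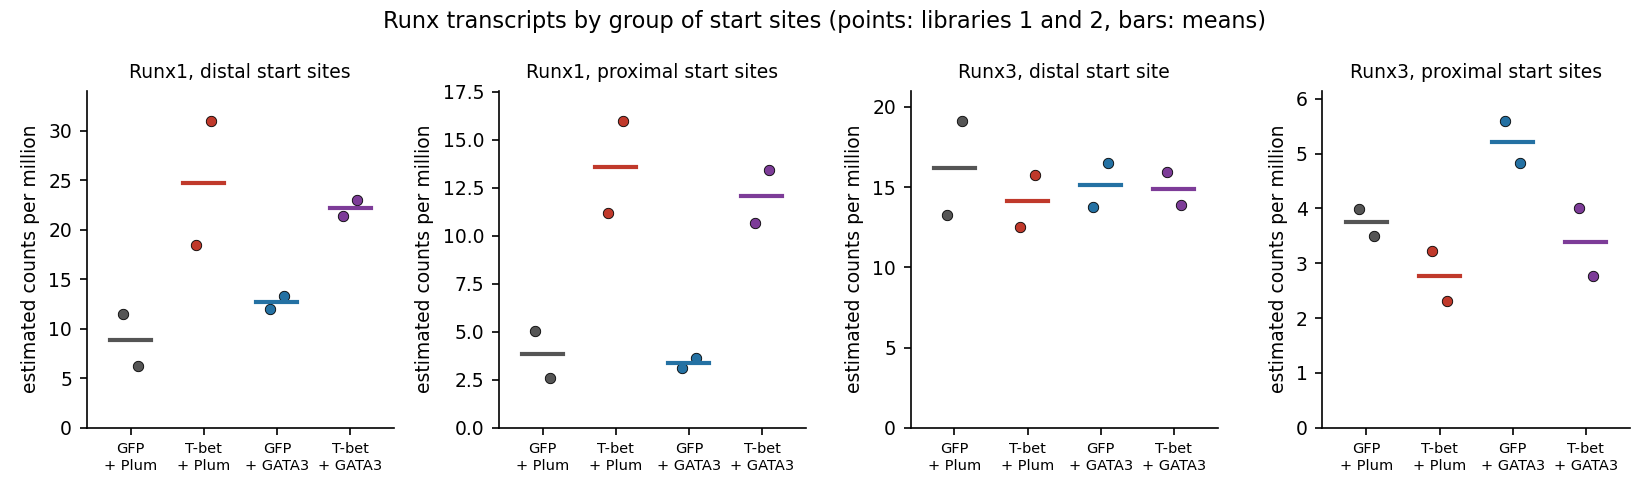
Estimated counts as CPM (vertical axes, from 0) of Runx1 and Runx3 transcripts by distal and proximal start sites, in each library of the 4 lines, with bars for the mean of the 2 libraries. Both Runx1 panels show the T-bet lines above the others (18.4 to 30.9 against 6.25 to 13.3 for distal, 10.7 to 16.0 against 2.60 to 5.05 for proximal), while the Runx3 panels overlap.

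Runx3 drew 71.1% to 86.2% of its counts from the distal transcript Runx3-201, whose start at 135120652 on chromosome 4 follows the distal Runx3 sequence above. The distal share was 82.2% with T-bet and 77.3% without (exact permutation p = 0.171, adjusted p = 0.730), and on shares of TPM this difference changed sign. Rora drew 84.0% to 90.1% from the group of Rora-201, the long form, and the rest almost wholly from Rora-202, which starts at 69289682 on chromosome 9. Nearly all Ikzf2 counts, 98.5% to 99.3%, came from Ikzf2-201 and Ikzf2-207. Ikzf3 drew 73.9% to 82.7% from Ikzf3-201 and Ikzf3-203, the forms that start at the 5′ end of the gene. Bcl6 drew 85.5% to 94.5% from Bcl6-201, and its share difference for GATA3 gave the smallest p of the 10 tests (93.2% with and 89.5% without, exact permutation p = 0.0571, adjusted p = 0.571). For Zbtb7b the assignment was unstable, since Zbtb7b-202 took 67.2% of the counts in GFP + Plum replicate 1 and 0% in replicate 2, and no share was tested for it.

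The same T-bet effect was then read in named lists of genes around these factors. A gene that passed the filter on low counts only through the libraries in which it is high had its direction fixed by the filter, so such genes are given by their counts alone, and list counts and medians are over genes that passed both with and without T-bet. Of 25 relatives, partners and antagonists, 19 passed in both, 0 were higher and 2 were lower (Foxp1 and Ikzf1). The same test called 8.55% of all genes tested higher and 6.61% lower. Of the 19, 5 had an unadjusted p below 0.05 by the same test, against 29.2% of all genes tested. Prdm1, which encodes the Bcl6 antagonist Blimp-1, passed only through the libraries with T-bet, at 2, 0, 3 and 4 counts without T-bet and 4, 15, 8 and 12 with it. Foxp1, a forkhead factor of naive T cells, was lower by a log2 fold change of -0.40 (SE 0.09, adjusted p = 0.0266). The count of lower genes fell to 0 without GFP + Plum replicate 2 or without any library of T-bet + Plum or GFP + GATA3, and to 1 without either T-bet + GATA3 library. The median log2 fold change of the 19 genes was -0.04.

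Of 12 TREG genes, 8 were tested, all 8 of them passing in both, and 4 were higher and 0 lower with T-bet, with a median log2 fold change of 0.88. Among all genes tested, 8.55% were called higher and 6.61% lower. Tnfrsf18 (GITR), a costimulatory receptor, rose most, from 1.40 to 4.27 CPM in the libraries without T-bet to 47.5 to 74.3 CPM in those with it (log2 4.60, SE 0.34, adjusted p = 0.000120). Capg, an actin-capping protein, gave 1.92 (SE 0.43, adjusted p = 0.0203) and Izumo1r (folate receptor 4) 1.77 (SE 0.25, adjusted p = 0.0027). Itgae (CD103) was the fourth, at 1.39. Ctla4, a target of Foxp3, had at most 1 count, and Il2ra (CD25) was not called (log2 0.36, SE 0.54, adjusted p = 0.707). The count of higher TREG genes was 2 without either T-bet + Plum library, GFP + GATA3 replicate 2 or T-bet + GATA3 replicate 1.

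Of 8 TH17 genes, 3 were tested and 1 passed in both, Il17f, which encodes a cytokine and was lower with T-bet (log2 -4.05, SE 0.21, adjusted p = 1.65e-05). The other 2 passed only through the libraries without T-bet. Il1r1, an interleukin-1 receptor, had 23, 3, 58 and 116 counts without T-bet and 0, 1, 0 and 3 with it. The cytokine gene Il22 had 12, 14, 17 and 56 counts in the libraries without T-bet and 0 in all 4 with it, and 56 of these counts came from GFP + GATA3 replicate 2.

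Of 11 TFH genes, 6 were tested and 5 passed in both, of which 1 was higher and 2 were lower, with a median of -0.18. For this and the next list, the shares over all genes tested were 8.55% higher and 6.61% lower. The lower genes were the receptor gene Il6ra (log2 -1.75, SE 0.23, adjusted p = 0.0017) and Cxcr5, the follicle homing receptor (log2 -0.65, SE 0.17, adjusted p = 0.0356). Btla, an inhibitory receptor, was higher (log2 0.62, SE 0.11, adjusted p = 0.0081), though not by limma on TPM. Tox2 passed only through the libraries without T-bet, at 54, 23, 50 and 33 counts against 0, 2, 8 and 7 with it. Of 12 CD8-type genes, 7 were tested and 4 passed in both, and these 4 were higher, Crtam by 3.82 (SE 0.45, adjusted p = 0.0011), Fasl, the death ligand, by 3.299 (SE 0.20, adjusted p = 4.24e-05), Gzma, a granzyme, by 2.06 and the chemokine gene Ccl5 by 1.84 on the log2 scale. The other 3 passed only through the libraries with T-bet. Gzmk, another granzyme, had 1, 2, 0 and 4 counts in the libraries without T-bet and 352, 954, 368 and 699 in those with it. Nkg7, a granule protein, had 0, 1, 1 and 4 counts without and 312, 815, 191 and 178 with it, and Klrd1 (CD94) had 3, 5, 3 and 10 without and 96, 457, 315 and 314 with it. Cd8a and Cd8b1 themselves had at most 4 counts in any library and were not tested. The other untested genes of this list were also near absent, Klrk1 with at most 4 counts, Gzmb, a further granzyme, with at most 5 and Prf1 (perforin) with at most 7. Prf1 had 7 and 5 counts in GFP + GATA3 and at most 2 in any library with T-bet. With GATA3 averaged over T-bet states, Il17f was lower (log2 -1.84, SE 0.20, adjusted p = 0.0273) and Gzma was higher (log2 1.12, SE 0.12, adjusted p = 0.0251), and no other gene of these 5 lists was called. Both GATA3 calls were lost on leaving out 1 library in several cases, T-bet + Plum replicate 2, GFP + GATA3 replicate 2 and either T-bet + GATA3 library for both genes, and also T-bet + Plum replicate 1 and GFP + GATA3 replicate 1 for Gzma.

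**Figure D5:**
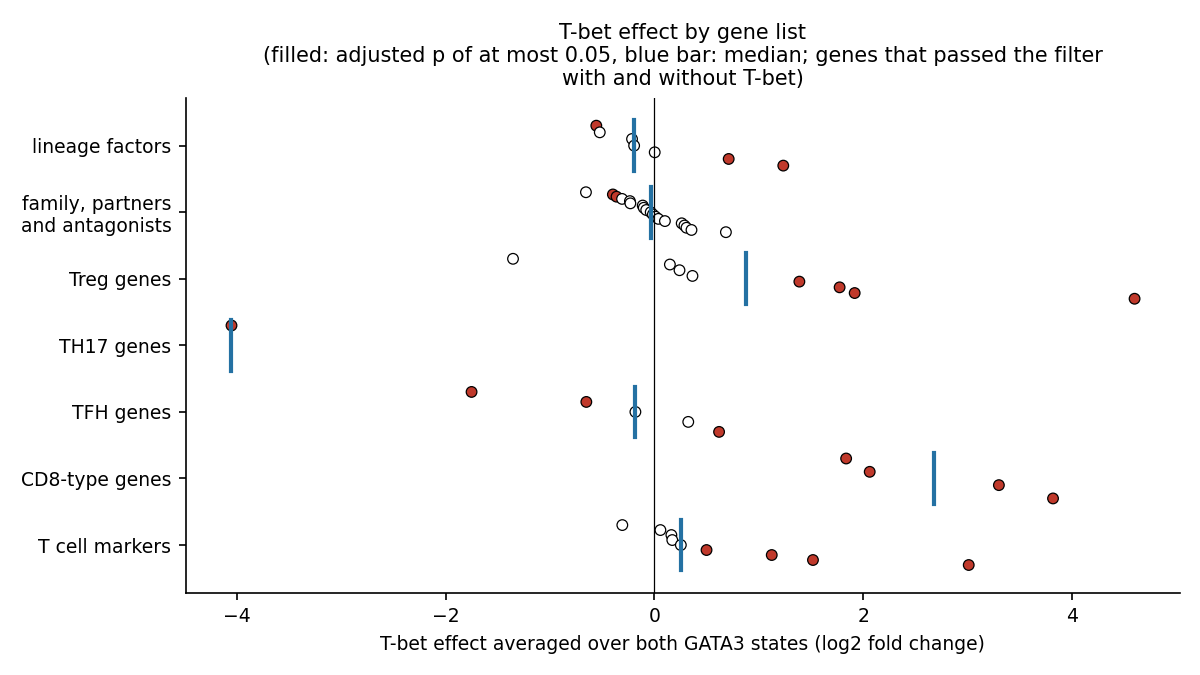
Averaged T-bet effect (log2 fold change, horizontal axis) of each gene that passed the filter both with and without T-bet in 7 lists, 1 row per list, with filled points at an adjusted p of at most 0.05 and blue bars at the list medians. The single TH17 gene drawn, Il17f, lies at -4.05 and the 4 CD8-type genes at 1.84 or above, while the lineage factors lie between -0.56 and 1.23.

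Of the T cell markers, 9 of 10 were tested and 4 were higher with T-bet, namely Cd2, Lck, Cd5 and Cd3d, and their part in the results above was not tested. The share of all genes tested that was called higher was 8.55%. Of the other markers, Lyz2, a myeloid gene, passed only through the libraries without T-bet, at 12, 12, 6 and 10 counts against 1, 2, 1 and 1 with it. Cd79b and Ncr1, which mark B and NK cells, were at 0 in all libraries.

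For the 3 members called with T-bet, the 2 protein-coding genes most alike across the 8 libraries were looked up among 8934 genes with a mean of at least 5 CPM, by Pearson correlation of log2 CPM, given as a description because the libraries share their lines and depth. For Runx1 these were Sp100, a nuclear body protein (r = 0.981), and Mpzl3 (r = 0.980). Sp100 had levels of 4.76 to 7.94 CPM without T-bet and 9.84 to 13.9 CPM with it. For Ikzf3 they were Ube2d1, a ubiquitin-conjugating enzyme (r = 0.987), and 2510039O18Rik (r = 0.985), and for Ikzf2 Yme1l1, a mitochondrial protease (r = 0.995), and H3f3a, which encodes histone H3.3 (r = 0.990). Ube2d1 stood at 10.0 to 14.6 CPM without T-bet and 18.5 to 30.7 CPM with it, and was highest in T-bet + Plum replicate 2, as Ikzf3 was. H3f3a stood at 284 to 330.35 CPM without T-bet and 207 to 279 CPM with it.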

How the data were processed

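Total RNA of stimulated EL4 lines was enriched for poly(A) RNA and sequenced as 100-base paired ends by the authors. Per the labels, reads were checked with FastQC, trimmed with Trim Galore and quantified with kallisto (versions not given in the sources used here). The authors deposited, for each library and transcript, estimated counts and transcripts per 1000000 (TPM), with no replicate pooled. The transcript names point to Gencode M18 while the study's methods name M20, and positions here come from Gencode M21 (GRCm38), in which the Foxp3 entry has a newer version. Estimated counts and TPM were summed per gene, and counts were rounded to whole numbers.

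Genes passing edgeR's filterByExpr (14791 of 54146) entered 1 quasi-likelihood fit over all 8 libraries (edgeR 4.0.16, TMM scaling, 4 residual degrees of freedom) with 8 contrasts, called at a Benjamini-Hochberg adjusted p of at most 0.05 over all 14791 genes. Standard errors were derived from the log2 fold change and its F statistic. The script was tested on simulated data. Start-site shares were compared by exact permutation of libraries in genes with at least 50 counts per library. The 9 genes and all gene lists were chosen with earlier results of these data known. Some genes of these lists are not reported here and were left out of the list counts and sums. Named from each list were up to 3 called genes per direction for T-bet and up to 2 for GATA3 with the largest change, besides the marker and label-check genes, and the genes most like each called member. Other genes (Cbfb, Runx2, Ikzf4, Ikzf5, Il2ra, Ctla4, Itgae, Cd3d, Crtam, Fasl, Ccl5, Cd8a and Cd8b1), the proximal share of Runx1 and the genes overlapping a member were singled out after their values were seen. The p values measure the spread between harvests of 1 line. Alternatives were DESeq2 1.42.0, library-size scaling, length offsets, other filters, limma 3.58.1 on log2(TPM + 0.5), a replicate block, a log2 threshold of 1.5, and leaving out each library.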

Additional observations from a re-analysis of the deposited data

How the results depend on the processing

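Of the 7 tested genes, Runx1 kept its averaged T-bet call in all 16 alternatives that added no log2 threshold (log2 fold change 0.94 to 1.47). Among these 16, Ikzf3 lost it in 5 and Ikzf2 in 2, each time with 1 library left out, and Bcl6 gained it in 3 (no filter on low counts, replicate block, without GFP + Plum replicate 1). The number of the 7 genes called with T-bet averaged over GATA3 states was 3, and 2 to 3 with 1 library left out. It was 0 where a log2 fold change above 1.5 was also asked. For T-bet + Plum versus GFP + Plum it was 2, rising to 3 with DESeq2, with no filter, with protein-coding genes only or with the replicate block, and falling to 1 with the contrast's own libraries only or with the fold threshold, 0 with limma on TPM and 0 to 2 with 1 library left out. For T-bet + GATA3 versus GFP + GATA3 it was 0, rising to 2 with DESeq2, with no filter or with the replicate block, 1 with the contrast's own libraries and 0 to 1 with 1 library left out. For T-bet + GATA3 versus GFP + Plum it was 1, against 2 with no filter, 0 with the contrast's own libraries, limma or the fold threshold, and 0 to 1 with 1 library left out. In the other 4 contrasts it was 0 under every alternative run. The cause of these moves was not tested.

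The shared replicate numbers were not taken to pair the libraries, since the correlation of deviations from the line means ran from -0.0455 to 0.302 (mean 0.142) and only 4 of 6 pairs were above 0.1. Some genes still differed by number in the same direction in every line. Il2ra lay at 91.0 to 174 CPM in replicates 1 and 23.7 to 66.1 in replicates 2. Bcl6 and Ikzf2 were higher and Zbtb7b was lower in replicate 2 of every line, and the other tested members were mixed. The main fit leaves such differences in its error, and their part in the missed calls was not tested. With the number as a replicate block the averaged T-bet count was 4 and that for T-bet + Plum 3. It called Bcl6 in the averaged effect (log2 -0.50, adjusted p = 0.0176), Ikzf2 in T-bet + Plum versus GFP + Plum (log2 -0.63, adjusted p = 0.00879) and Bcl6 and Ikzf2 in T-bet + GATA3 versus GFP + GATA3 (log2 -0.83, adjusted p = 0.0170, and log2 -0.50, adjusted p = 0.0203).

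Signs turned only for effects that were not called. The averaged T-bet effect on Zbtb7b (0.0031) was -0.014 with DESeq2, -0.064 with library-size scaling, -0.37 with length offsets, -0.0082 with no filter, -0.34 with limma and -0.17 to 0.24 with 1 library left out. With 1 library left out, Bcl6 in T-bet + Plum versus GFP + Plum ran from -0.47 to 0.18. The averaged GATA3 effects ran from -0.053 to 0.37 for Runx1, -0.31 to 0.020 for Ikzf3 and -0.028 to 0.16 for Runx3, and that on Zbtb7b was 0.081 with length offsets and 0.12 with limma. The interaction for Ikzf2 was -0.028 with limma and -0.049 to 0.30 with 1 library left out.

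In percentage points, the T-bet difference in distal share turned to 2.26 for Runx1 and -1.41 for Runx3 on shares of TPM. With 1 library left out, share differences crossed 0 for GATA3 on Rora (-0.572 to 1.48), T-bet on Bcl6 (-2.93 to 0.0532), T-bet on Ikzf3 (-2.82 to 0.108) and GATA3 on Ikzf3 (-0.135 to 2.79). The depth limits the low genes most, Zbtb7b having 34 to 98 counts per library, and Foxp3 and Eomes could not be tested at any setting.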
